A study of Homo sapiens and Mus musculus with 36 samples.

Results

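The comparison described here asks what a bile acid mixture adds to the response of human hepatic cells to nefazodone. It rests on 6 of the 36 arrays of the series, chosen by their titles: 3 cultures of HepaRG cells given 30 µM nefazodone together with the bile acid mix, and 3 given 30 µM nefazodone alone, all for 72 h. The labels call the mix 50 times concentrated, and its composition is not given in the sources used here. The HepaRG experiment filled 24 arrays in 8 groups of 3: vehicle control, the mix, 60 µM atazanavir, 20 µM cyclosporin A and 30 µM nefazodone, and each drug with the mix. What the vehicle was is not given in the sources used here. The title of the series places the work in the testing of a described chain of events in cholestasis, an adverse outcome pathway. HepaRG cells come from a human liver tumour and mature in culture into a mixture of cells resembling hepatocytes and bile duct cells, and here they were thawed already differentiated. All groups share this one line, and the labels name no other cell type.

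Bile acids are detergents that hepatocytes make from cholesterol and secrete into bile. In the cell they bind the nuclear receptor FXR, which lowers their synthesis and uptake and raises their export across the basolateral membrane through the transporter encoded by SLC51A and SLC51B. Nefazodone is an antidepressant known for liver injury, and it is described as an inhibitor of the bile salt export pump, encoded by ABCB11, and of mitochondrial respiration.

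RNA levels were log2 values deposited by the authors, and 19775 genes were tested, each through 1 probe set. A gene was called where the adjusted p (limma, Benjamini-Hochberg) was under 0.05, and a change is a difference of group means on the log2 scale. Levels under 4.27, in the dimmest 1 in 3 genes, are called dim below, since a fold there depends on the background of the array. Array medians lay between 4.24 and 4.28 in the 6 arrays. The 3′ control probe set of GAPDH exceeded the 5′ one, a sign of RNA quality, by 0.61 to 0.64 with nefazodone and by 0.56 to 0.61 with the mix added. The log2 of the summed level of 7 hepatocyte markers was 15.02 to 15.31 with nefazodone and 15.03 to 15.18 with the mix added, and none of them was dim. The sum is of unlogged levels, in which albumin (ALB), at 13.81 and 13.78, weighs heavily. Of the 7, 1 was called lower, CYP3A4. Nefazodone alone had lowered all 7 against vehicle, with a median change of -1.74.

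The third nefazodone array stood apart. Across genes it correlated with the other nefazodone arrays at 0.9949 and 0.995, whereas these correlated with each other at 0.9975. Against vehicle, nefazodone alone changed 9006 genes (45.5%). Of 2687 genes among these with a change of at least 2-fold, the third array was the nearest to the control mean in 1731 (64.4%), against 21.2% and 14.4% for the others. This array is called nefazodone array 3 below, and results that rest on it are given with and without it.

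Adding the mix to nefazodone changed 3059 genes (15.5% of those tested), 1493 higher (7.55%) and 1566 lower (7.92%). Of these, 117 rose and 111 fell at least 2-fold. Without nefazodone array 3 the count was 1844, 899 higher and 945 lower, and 1800 of these genes were among those called with it. The median change of all genes was -0.01. The groups did not overlap in 6415 genes (32.4%). Chemokine and NF-kB target genes, metallothioneins and chaperones of the endoplasmic reticulum (ER) were among the genes that rose. Genes of oxidative phosphorylation, cholesterol synthesis and fatty acid synthesis were among those that fell, as the plot of list members shows. All list counts below are to be read against the 7.55% higher and 7.92% lower among all genes.

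**Figure D1:**
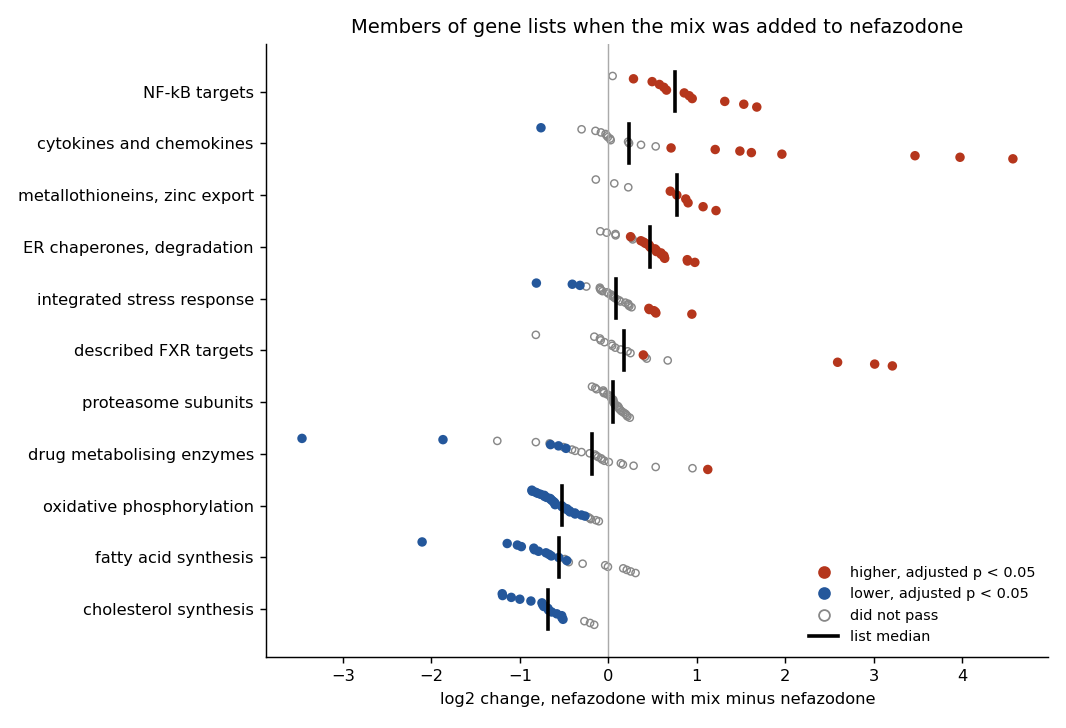
Each point is 1 measured gene of a list, placed by its log2 change when the mix was added to nefazodone (horizontal axis, 3 arrays against 3); filled points were called, and black bars are list medians. All 31 oxidative phosphorylation genes lie below 0, and all 12 NF-kB targets lie above 0.

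The bile acid exporter genes rose. SLC51B stood at 4.26, 4.13 and 4.08 in the nefazodone arrays and at 7.20, 6.88 and 8.04 with the mix added, a change of 3.21 (SE 0.30, 9.27-fold, adjusted p = 4.45e-07 by limma). SLC51A stood at 3.07, 2.50 and 2.92 with nefazodone and at 5.54, 5.53 and 6.46 with the mix added, a change of 3.01 (SE 0.26, 8.07-fold, adjusted p = 1.24e-07 by limma). Both genes were among the largest rises, picked for groups that do not overlap, and their level without the mix was dim. The changes were 3.18 and 3.06 without nefazodone array 3. The other 4 measured genes of basolateral efflux were not called, among them ABCC3 at 9.74 ± 0.06 (SD, n = 3) and 9.77 ± 0.06. In bulk cultures fewer cells of a type and less RNA per cell cannot be told apart, here and below.

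Of 18 genes described as FXR targets 4 rose and none fell, with a median change of 0.18. Besides the exporter genes these were KNG1 and INSIG2. KNG1 encodes kininogen, a plasma protein of the kinin system. It stood at 5.78, 5.87 and 7.41 with nefazodone and at 8.68, 8.50 and 9.66 with the mix, a change of 2.59 (SE 0.46, adjusted p = 0.000422 by limma). KNG1 was picked for groups that do not overlap, and nefazodone array 3 was the highest of its group. Of the other probe sets of KNG1, one gave 1.82 and one, dim in both groups, 0.05. INSIG2, which retains the sterol-regulated factors in the ER, rose by 0.40 (SE 0.09, adjusted p = 0.00346 by limma). NR0B2, the FXR-induced repressor SHP, was at 4.97 ± 0.22 with nefazodone and 5.39 ± 0.34 with the mix (adjusted p = 0.0848 by limma).

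Of 13 genes of bile acid synthesis 1 rose and 2 fell, against 7.55% higher and 7.92% lower among all genes. The median change was -0.05, and without nefazodone array 3, 0 rose and 1 fell. CYP7A1, the rate-limiting enzyme of the classical pathway, was dim at 2.16, 1.95 and 1.88 with nefazodone and at 1.91, 1.85 and 2.06 with the mix added. The groups overlapped (adjusted p = 0.971 by limma), and the vehicle control stood at 10.003 ± 0.46. CYP8B1, which sets the share of cholic acid, was dim at 3.97 ± 0.15 and 3.92 ± 0.24, against 8.44 in the control. CYP7B1, an enzyme of the alternative pathway, fell from 4.67, 5.15 and 6.09 to 3.41, 3.99 and 4.02, a dim level. The change was -1.496 (SE 0.31, adjusted p = 0.00154 by limma). CYP39A1, an oxysterol hydroxylase, rose by 0.64 (adjusted p = 0.00652 by limma), with an adjusted p of 0.0526 without nefazodone array 3. BAAT, which conjugates bile acids with glycine or taurine, fell by 0.68 with overlapping groups (adjusted p = 0.0499 by limma), its adjusted p was 0.293 without nefazodone array 3, and its call was kept in 2 of 6 such fits, each without 1 array.

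Among 10 canalicular transporters 2 rose and 1 fell, against 7.55% higher and 7.92% lower among all genes. With the replicate number as a block 3 fell. ATP8B1, a phospholipid flippase mutated in inherited cholestasis, rose from 8.16, 8.22 and 8.37 to 8.96, 8.94 and 9.06, by 0.74 (SE 0.17, adjusted p = 0.00393 by limma). A second probe set of ATP8B1 gave 0.30. ABCG2, an efflux pump of drugs and conjugates, rose from 7.75, 7.80 and 7.68 to 8.33, 8.29 and 8.38, by 0.59 (SE 0.10, adjusted p = 0.000246 by limma). Neither gene had overlapping groups. ABCC2, which exports conjugated bilirubin, fell by 0.55 (SE 0.11, adjusted p = 0.00145 by limma). ABCB11, the bile salt export pump, was dim at 3.83 ± 0.10 and 3.74 ± 0.13. ABCB4, the phosphatidylcholine translocase of bile, was at 8.18 ± 0.20 and 8.61 ± 0.13 (adjusted p = 0.195 by limma).

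Of 6 sinusoidal uptake genes 1 rose and none fell, against 7.55% higher and 7.92% lower among all genes. With the replicate block 1 fell. SLCO1B3, an organic anion uptake transporter, went from 5.02, 5.17 and 4.63 to 5.94, 5.93 and 5.76, a change of 0.94 (SE 0.13, adjusted p = 4.39e-05 by limma). SLC10A1, the sodium-dependent bile acid uptake transporter, was dim at 3.58 ± 0.06 and 3.39 ± 0.16. Of 12 bile acid and xenobiotic receptor genes 2 fell, against 7.92% lower among all genes, and none rose. Without nefazodone array 3, 1 fell. FGFR4, the hepatocyte receptor of the gut hormone FGF19, fell by 1.14 (SE 0.17, adjusted p = 5.07e-05 by limma). Other probe sets of FGFR4 gave 0.10, -0.42 and -0.51. NR1H3, the oxysterol receptor LXRα, fell by 0.52 (adjusted p = 0.031 by limma), with an adjusted p of 0.187 without nefazodone array 3 and a call in 1 of the 6 fits without 1 array.

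**Figure D2:**
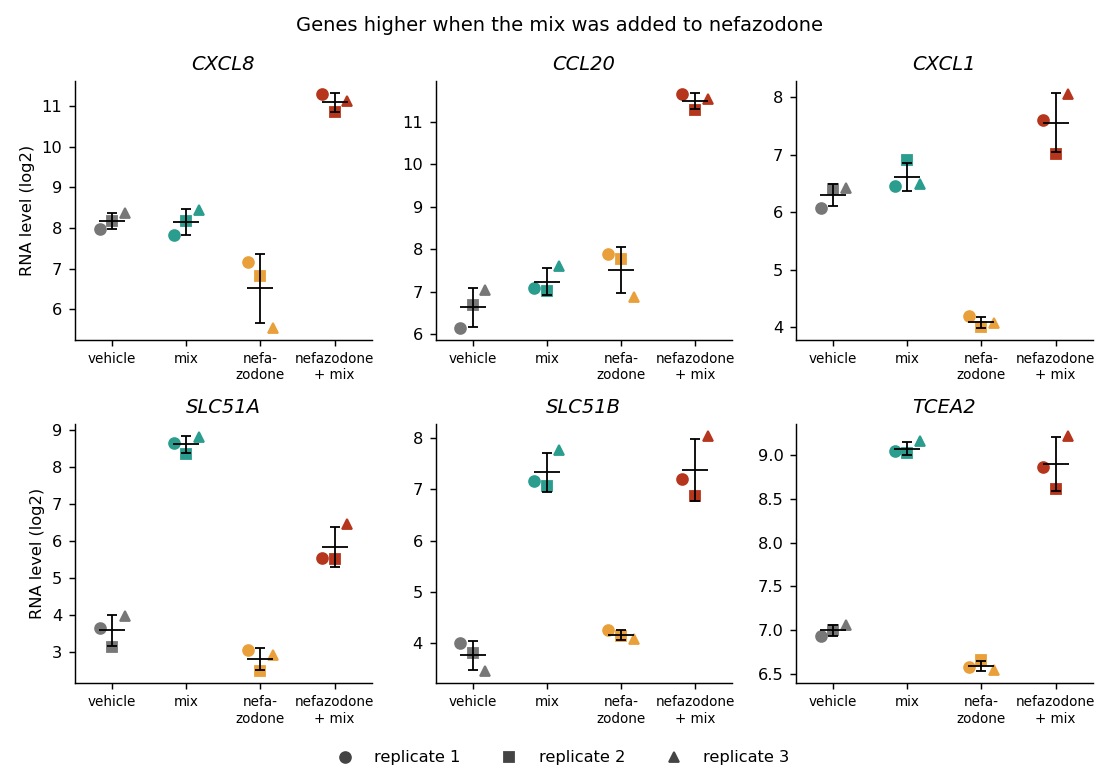
Log2 RNA level (vertical axes) of 6 genes, 1 panel each, in vehicle, mix, nefazodone, and nefazodone with mix (horizontal axes); symbols mark the 3 replicates, and bars give mean and SD. The genes were picked among those without overlap of groups, so in every panel the arrays with nefazodone and mix lie above those with nefazodone. For CXCL8 the arrays with mix alone lie at the level of vehicle, and for SLC51A they lie highest.

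The largest rises were of chemokine genes, whose products attract leukocytes. CXCL8 encodes interleukin 8, a neutrophil attractant. It stood at 7.17, 6.82 and 5.55 with nefazodone and at 11.30, 10.84 and 11.12 with the mix added. The change was 4.58 (SE 0.28, 23.8-fold, adjusted p = 1.82e-09 by limma), and 4.09 without nefazodone array 3, the lowest of its group. A second probe set rose by 4.66. The vehicle control was at 8.16 ± 0.20, above all nefazodone arrays and below all arrays with nefazodone and mix.

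CCL20, which attracts lymphocytes and dendritic cells, stood at 7.89, 7.77 and 6.88 with nefazodone and at 11.65, 11.27 and 11.54 with the mix, a change of 3.98 (SE 0.25, 15.8-fold, adjusted p = 2e-09 by limma). CXCL1, another neutrophil attractant, stood at 4.19, 3.998 and 4.07, a dim level, and at 7.60, 7.01 and 8.05 with the mix, a change of 3.47 (SE 0.22, 11.1-fold, adjusted p = 1.85e-09 by limma). Both genes were among those picked for groups that do not overlap.

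Of 21 cytokine and chemokine genes 8 rose and 1 fell, with a median change of 0.24; without nefazodone array 3, 7 rose and 1 fell. The remaining called members are named here after their values were seen. CCL2, the monocyte attractant, rose from 4.63, 4.73 and 4.23 to 6.53, 6.38 and 6.57, by 1.96 (SE 0.15, adjusted p = 1.9e-08 by limma). CXCL3, a neutrophil attractant, rose by 1.62 and IL18, a cytokine released by inflammasomes, by 1.49. CXCL2 stood at 7.46, 7.36 and 9.03 with nefazodone and at 9.33, 8.91 and 9.24 with the mix (change 1.21, adjusted p = 0.00328 by limma). These groups overlapped, because nefazodone array 3 lay among the arrays with the mix. Other probe sets of CXCL2, dim in both groups, gave -0.27 and -0.01. IL6 rose by 0.71 (adjusted p = 0.0459 by limma), with an adjusted p of 0.243 without nefazodone array 3 and a call in 1 of the 6 fits without 1 array. CSF1, the macrophage growth factor, fell by 0.76 (SE 0.11, adjusted p = 4.03e-05 by limma). TNF and IL1B did not pass the test, with changes of 0.02 and 0.24.

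NF-kB is a family of transcription factors that inflammatory signals activate and that induces its own inhibitors. Of 12 NF-kB targets and adhesion genes 11 rose and none fell, with a median change of 0.76, and 10 rose without nefazodone array 3. PTGS2, the inducible prostaglandin synthase, stood at 6.67, 6.67 and 5.56 with nefazodone and at 8.19, 8.11 and 7.63 with the mix, a change of 1.68 (SE 0.23, adjusted p = 2.86e-05 by limma). TNFAIP3, the feedback inhibitor A20, rose from 7.56, 7.47 and 7.53 to 9.02, 8.89 and 9.24, by 1.53 (SE 0.13, adjusted p = 1.43e-07 by limma). Both had groups that did not overlap. TRAF1, an adaptor of TNF receptors, rose by 1.32 (SE 0.18, adjusted p = 2.26e-05 by limma), and NFKBIA, the inhibitor of NF-kB, named after its values were seen, by 0.92 (SE 0.12, adjusted p = 1.14e-05 by limma). VCAM1, an adhesion molecule, was the member that did not pass, at 0.05.

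The promoters of the leading chemokine genes are shown because the NF-kB motif can be seen in them. Other motifs that were searched and not shown are given with the processing of the data. RefSeq promoter windows (GRCh38.p14) of the 250 bases before the start site were found for 15382 of the genes tested. The NF-kB motif was GGNNTTTCC, searched on both strands and chosen after the values were seen. This motif was present in 5.75% of all windows, in 6.87% of those of genes that rose and in 4.73% of those of genes that fell. Among cytokine genes 11 of 15 windows held it, and among NF-kB targets 6 of 11. Genes that held it but were not called were CXCL5, CXCL6, CXCL10, CXCL11, IL32 and VCAM1. The windows of CXCL8 (chr4:73740319-73740568, plus strand), CXCL1 (chr4:73869143-73869392, plus strand) and CCL20 (chr2:227813592-227813841, plus strand) read 5′ to 3′ as follows, with matches in capitals; in CCL20 the capitals are the reverse complement of the motif.
CXCL8: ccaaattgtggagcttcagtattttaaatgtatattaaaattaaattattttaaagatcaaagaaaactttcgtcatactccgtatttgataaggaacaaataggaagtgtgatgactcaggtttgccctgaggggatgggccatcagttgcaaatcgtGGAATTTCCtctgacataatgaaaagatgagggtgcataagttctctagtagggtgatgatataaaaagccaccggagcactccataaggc
CXCL1: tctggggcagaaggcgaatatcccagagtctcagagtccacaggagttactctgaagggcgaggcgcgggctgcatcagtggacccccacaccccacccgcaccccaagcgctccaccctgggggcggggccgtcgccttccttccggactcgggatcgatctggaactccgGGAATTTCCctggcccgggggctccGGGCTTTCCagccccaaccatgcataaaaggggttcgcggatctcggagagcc
CCL20: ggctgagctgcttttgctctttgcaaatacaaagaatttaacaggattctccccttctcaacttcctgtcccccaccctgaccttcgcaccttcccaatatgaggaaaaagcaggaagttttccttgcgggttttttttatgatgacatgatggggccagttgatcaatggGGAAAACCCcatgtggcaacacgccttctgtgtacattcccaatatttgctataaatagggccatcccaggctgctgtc
The match of CXCL8 ended 83 bases before the start site and that of CCL20 71 bases before it. CXCL1 held 2 matches. A match is a run of letters and does not show that a factor was bound.

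Immediate early genes, whose RNA rises soon after a stimulus, were higher at 72 h in 8 of 19 members, with none lower and a median change of 0.28. IER3, a stress-induced survival gene, rose from 9.49, 9.41 and 8.75 to 10.79, 10.59 and 10.43, by 1.39 (SE 0.17, adjusted p = 9.41e-06 by limma). FOSL1, a subunit of AP-1, rose by 0.85 and DUSP1, a phosphatase of MAP kinases, by 0.81. Other probe sets of DUSP1 gave 1.07 and 0.02. None of these genes had overlapping groups. Interferon-induced genes gave no call among 11 (median change -0.12). Of 13 S100 genes, calcium-binding proteins often raised in inflammation, 1 rose, near the 7.55% higher among all genes, and 0 fell. S100P rose from 8.87, 8.42 and 7.20 to 9.63, 9.29 and 9.47, by 1.30 (SE 0.28, adjusted p = 0.00198 by limma).

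Among 17 acute phase genes 3 rose and none fell, and 5 rose with the replicate block. LCN2, lipocalin 2, which withholds iron from bacteria, rose from 8.83, 8.86 and 8.28 to 10.21, 9.92 and 9.77, by 1.31 (SE 0.16, adjusted p = 4.81e-06 by limma). ITIH3, a plasma protein that binds hyaluronan, rose from 2.95, 3.13 and 3.61, a dim level, to 5.43, 4.63 and 5.71, by 2.03 (SE 0.23, adjusted p = 3.74e-06 by limma). C3, the central complement protein, rose by 0.54. All had groups that did not overlap. Of 30 complement and coagulation genes 2 rose and 2 fell, near the 7.55% higher and 7.92% lower among all genes. In this list 1 fell without nefazodone array 3 and 6 with the replicate block. CFB, complement factor B, rose by 1.30 (SE 0.22, adjusted p = 0.000235 by limma), while a second probe set, dim in both groups, gave 0.11. C4BPB, a subunit of a complement inhibitor, fell by 0.83 (SE 0.18, adjusted p = 0.00188 by limma).

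Genes of oxidative phosphorylation fell together. Of 31 measured members 26 fell and none rose, against 7.92% lower among all genes, and the median change was -0.53. Without nefazodone array 3, 24 fell, with a median of -0.46. These are nuclear genes of the respiratory complexes and of ATP synthase, which make most ATP in the mitochondrion. ATP5F1B, the catalytic β subunit of ATP synthase, stood at 12.06, 12.08 and 12.43 with nefazodone and at 11.31, 11.28 and 11.41 with the mix, and fell by 0.86 (SE 0.09, adjusted p = 2.12e-06 by limma). NDUFS7, a core subunit of complex I, went from 8.84, 8.92 and 9.31 to 8.04, 8.16 and 8.28 and fell by 0.86 (SE 0.10, adjusted p = 3.73e-06 by limma). NDUFB10, an accessory subunit of complex I, went from 10.44, 10.44 and 10.84 to 9.75, 9.73 and 9.77 and fell by 0.82 (SE 0.09, adjusted p = 2.69e-06 by limma). In each of these genes the groups did not overlap and nefazodone array 3 was the highest array. The members that did not pass were NDUFA1, NDUFA2, NDUFA10, NDUFV2 and SDHC, with changes of -0.23 to -0.11.

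Cholesterol synthesis genes fell as well. Of 18 measured members 15 fell and none rose, with a median change of -0.68, and 15 fell without nefazodone array 3. The sterol-regulated factor SREBP-2, encoded by SREBF2, drives these genes. HMGCS1, an early synthase of the pathway, stood at 10.88, 10.74 and 11.05 with nefazodone and at 9.65, 9.45 and 9.98 with the mix, and fell by 1.199 (SE 0.15, adjusted p = 1.14e-05 by limma). IDI1, the isopentenyl diphosphate isomerase, went from 11.75, 11.80 and 12.06 to 10.46, 10.56 and 11.02 and fell by 1.195 (SE 0.12, adjusted p = 1.04e-06 by limma). LSS, which forms lanosterol, fell by 1.10 (SE 0.12, adjusted p = 2.04e-06 by limma), and INSIG1, the sterol-dependent retention protein of the ER, named after its values were seen, fell by 1.00 (SE 0.16, adjusted p = 0.0002 by limma). None of these genes had overlapping groups. The members that did not pass were MVK, PMVK and SREBF2, at -0.21, -0.16 and -0.27.

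Of 21 fatty acid synthesis and lipid droplet genes 12 fell and none rose, with a median change of -0.56, and 12 fell without nefazodone array 3. GPAM, which starts glycerolipid synthesis, fell from 8.62, 8.62 and 10.55 to 6.96, 6.84 and 7.68, a change of -2.10 (SE 0.36, adjusted p = 0.000284 by limma). The change was -1.46 without nefazodone array 3, its highest array. ACSS2, which makes acetyl-CoA from acetate, fell by 1.14 (SE 0.14, adjusted p = 6.83e-06 by limma), and LPIN1, the phosphatidate phosphatase lipin 1, by 1.03 (SE 0.09, adjusted p = 1.24e-07 by limma). FASN, fatty acid synthase, and SREBF1, the gene of SREBP-1, both named after their values were seen, fell by 0.98 and 0.84. Other probe sets, at lower levels, gave 0.01 for FASN and -0.12 for SREBF1.

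Among 20 genes of fatty acid oxidation and PPARα targets 3 rose and 4 fell, and 7 fell with the replicate block. The counts were 1 and 2 without nefazodone array 3. VNN1, a pantetheinase and PPARα target, rose from 8.82, 8.56 and 8.34 to 10.63, 10.32 and 10.44, by 1.89 (SE 0.25, adjusted p = 1.94e-05 by limma). The groups did not overlap. HADH, a β-oxidation dehydrogenase, fell by 0.72 (SE 0.15, adjusted p = 0.00177 by limma). ANGPTL4, an inhibitor of lipoprotein lipase, rose by 0.58 (adjusted p = 0.048 by limma), with an adjusted p of 0.275 without nefazodone array 3 and a call in 1 of the 6 fits without 1 array.

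Chaperones and degradation factors of the ER rose. Of 24 measured genes 18 rose and none fell, against 7.55% higher among all genes, with a median change of 0.47, and 17 rose without nefazodone array 3. CRELD2, an ER-resident folding factor, stood at 9.07, 9.17 and 8.91 with nefazodone and at 10.09, 10.02 and 9.97 with the mix, a change of 0.98 (SE 0.09, adjusted p = 5.91e-07 by limma). SDF2L1, a partner of the chaperone BiP, rose from 8.96, 8.90 and 8.62 to 9.73, 9.70 and 9.73, by 0.90 (SE 0.08, adjusted p = 3.64e-07 by limma). PDIA4, a disulfide isomerase, rose by 0.89 (SE 0.09, adjusted p = 6.16e-07 by limma). CALR, the lectin chaperone calreticulin, named after its values were seen, rose by 0.63 (SE 0.07, adjusted p = 3.55e-06 by limma). None of these genes had overlapping groups. HSPA5, which encodes BiP, stood at 13.58, 13.63 and 13.49 with nefazodone and at 13.82, 13.81 and 13.82 with the mix. Its groups did not overlap either, and the change was 0.25 (SE 0.08, adjusted p = 0.0337 by limma). A second probe set of HSPA5 gave 0.54. The adjusted p of HSPA5 was 0.156 without nefazodone array 3 and 0.0627 in a fit of the 6 arrays alone, and its call was kept in 1 of 6 fits that each left out 1 array.

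The ER stress element, a motif through which the factors ATF6 and XBP1 act, holds CCAAT and, 9 bases further on, CCACG, and was searched on both strands. It was present in 16 of 15382 windows (0.104%), in 8 of 1238 windows of genes that rose and in 0 of 1290 windows of genes that fell. Of 21 windows of the ER genes 6 held it, those of CALR, CANX, CRELD2, HSP90B1, HSPA5 and XBP1. CANX and XBP1 did not pass the test, at 0.08 and -0.02. The windows of HSPA5 (chr9:125241344-125241593, minus strand), CALR (chr19:12938359-12938608, plus strand) and CRELD2 (chr22:49918384-49918633, plus strand) show the element in capitals, at different distances from the start site; in CALR and CRELD2 the capitals are its reverse complement.
HSPA5: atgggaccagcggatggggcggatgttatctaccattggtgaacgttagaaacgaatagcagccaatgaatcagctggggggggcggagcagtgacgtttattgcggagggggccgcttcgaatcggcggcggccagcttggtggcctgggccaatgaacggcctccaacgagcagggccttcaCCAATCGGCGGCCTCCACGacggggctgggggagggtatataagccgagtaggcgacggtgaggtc
CALR: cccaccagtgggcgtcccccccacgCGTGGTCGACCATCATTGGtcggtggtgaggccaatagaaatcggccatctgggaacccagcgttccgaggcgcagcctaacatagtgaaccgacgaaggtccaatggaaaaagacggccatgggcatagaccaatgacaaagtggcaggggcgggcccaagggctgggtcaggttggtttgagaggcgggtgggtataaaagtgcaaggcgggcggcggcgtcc
CRELD2: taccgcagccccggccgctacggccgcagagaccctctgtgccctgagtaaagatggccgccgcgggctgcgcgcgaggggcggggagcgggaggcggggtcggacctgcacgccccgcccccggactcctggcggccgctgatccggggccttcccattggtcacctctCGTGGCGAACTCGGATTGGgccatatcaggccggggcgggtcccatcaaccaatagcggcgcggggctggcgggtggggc
The element ended 48 bases before the start site in HSPA5, 207 in CALR and 62 in CRELD2.

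The integrated stress response slows translation and induces amino acid genes through the factor ATF4. Of 28 measured members 6 rose and 3 fell, with a median change of 0.08. Without nefazodone array 3, 2 rose and 1 fell, and in a fit of the 6 arrays alone 3 rose and 1 fell. Without array 1 or array 2 of nefazodone with mix, 3 rose. DDIT3, the gene of CHOP, was at 11.59 ± 0.17 with nefazodone, against 7.73 in the control, and at 11.79 ± 0.11 with the mix (adjusted p = 0.408 by limma). TRIB3, a pseudokinase induced by CHOP, was at 12.40 ± 0.17 and 12.53 ± 0.06 (adjusted p = 0.504 by limma). STC2, a secreted glycoprotein of the ER stress response, rose from 7.84, 7.54 and 7.60 to 8.598, 8.51 and 8.71, by 0.94 (SE 0.11, adjusted p = 4.07e-06 by limma). PSPH, the last enzyme of serine synthesis, fell by 0.81 (SE 0.16, adjusted p = 0.000792 by limma). ATF3, FGF21 and GDF15, stress-induced genes, rose by 0.53, 0.52 and 0.46, and their adjusted p without nefazodone array 3 was 0.206, 0.0686 and 0.237 by limma. Of 17 cytosolic aminoacyl-tRNA synthetases, which load amino acids onto tRNA, 4 fell and none rose, and 2 fell without nefazodone array 3. IARS1 fell by 0.36 (adjusted p = 0.00491 by limma).

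Metallothioneins, small proteins that bind zinc and copper, rose. Of 9 genes of metallothioneins and zinc export 6 rose and none fell, with a median change of 0.78, and 6 rose without nefazodone array 3. MT1E stood at 10.90, 10.81 and 10.44 with nefazodone and at 12.04, 11.88 and 11.90 with the mix, a change of 1.22 (SE 0.12, adjusted p = 9.75e-07 by limma). MT1F rose by 1.07 (SE 0.11, adjusted p = 1.42e-06 by limma) and MT1X by 0.90 (SE 0.11, adjusted p = 5.65e-06 by limma). No groups overlapped in these genes, which are similar copies whose probes can share signal. Of 20 antioxidant targets of NRF2 1 rose and 2 fell, near the shares over all genes, and 0 rose and 2 fell without nefazodone array 3. GCLC, which limits glutathione synthesis, fell by 0.62 (SE 0.09, adjusted p = 4.47e-05 by limma), and AKR1B10, an aldo-keto reductase, by 0.83 (SE 0.14, adjusted p = 0.000339 by limma). HMOX1, heme oxygenase 1, was at 7.94 ± 0.07 and 7.63 ± 0.12 (adjusted p = 0.162 by limma). Of 15 heat shock protein genes 1 rose and 3 fell, against 7.55% higher and 7.92% lower among all genes. Without nefazodone array 3, 0 rose and 1 fell. Of 25 proteasome genes none was called (median change 0.06).

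The largest falls included genes of hepatocyte metabolism, in which nefazodone array 3 was high. CYP2C8, a drug-metabolising cytochrome P450, stood at 5.24, 4.86 and 8.23 with nefazodone and at 2.58, 2.49 and 2.87, a dim level, with the mix. It fell by 3.46 (SE 0.63, adjusted p = 0.000529 by limma), and a second probe set, dim in both groups, gave 0.13. TDO2, which starts tryptophan breakdown, stood at 9.89, 9.28 and 11.88 and with the mix at 6.83, 6.65 and 7.31, and fell by 3.42 (SE 0.42, adjusted p = 8.37e-06 by limma). Both genes were picked for groups that do not overlap, and the highest array was nefazodone array 3. MTTP, which loads lipid onto apolipoprotein B, fell from 6.51, 6.26 and 8.36 to 4.34, 3.57 and 5.20, a change of -2.67 (SE 0.46, adjusted p = 0.000287 by limma). CYP3A4, the main drug-metabolising P450, fell from 7.92, 7.74 and 9.87 to 6.54, 6.54 and 6.84, a change of -1.87 (SE 0.38, adjusted p = 0.00135 by limma), and its other probe sets gave -1.89, -0.85, -0.53 and, dim in both groups, 0.02. Without nefazodone array 3 the changes of CYP2C8, TDO2, MTTP and CYP3A4 were -2.40, -2.66, -2.01 and -1.19, and all were still called.

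**Figure D3:**
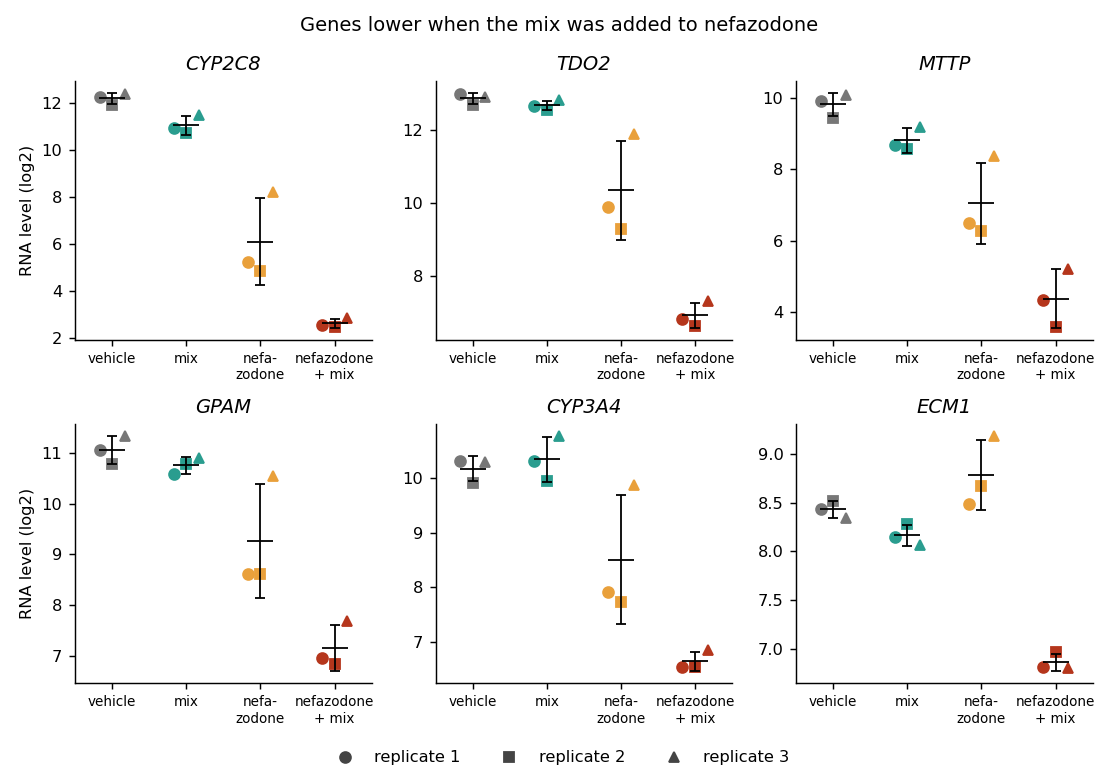
Log2 RNA level (vertical axes) of 6 genes that fell, 1 panel each, in vehicle, mix, nefazodone, and nefazodone with mix (horizontal axes); symbols mark the 3 replicates, and bars give mean and SD. In all panels the triangle of nefazodone, replicate 3, is the highest nefazodone array. The genes were picked for groups that do not overlap, so all arrays with nefazodone and mix lie below every nefazodone array.

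Of 26 drug metabolism genes 5 fell and 1 rose, with a median change of -0.18, and 8 fell with the replicate block. CYP1A1, the enzyme induced through the aryl hydrocarbon receptor, rose from 4.68, 4.75 and 4.77 to 6.48, 5.48 and 5.62, by 1.12 (SE 0.23, adjusted p = 0.00146 by limma). Of 23 secreted carriers and apolipoproteins 2 fell, MTTP and APOB, near the 7.92% lower among all genes. In this list 1 was lower without nefazodone array 3 and 6 with the replicate block. APOB fell by 1.02 with overlapping groups (adjusted p = 0.0097 by limma), and its adjusted p without nefazodone array 3 was 0.104. Of 14 amino acid breakdown genes 5 fell and 1 rose, and 2 fell without nefazodone array 3. Of 11 urea cycle genes 1 fell, near the 7.92% lower among all genes, and none rose. In this list 0 were lower and 1 higher without nefazodone array 3, and 2 were lower with the replicate block. ASL, argininosuccinate lyase, fell by 0.45 (adjusted p = 0.00714 by limma), with an adjusted p of 0.0754 without nefazodone array 3. ALB, albumin, was at 13.81 ± 0.10 and 13.78 ± 0.04 (adjusted p = 0.926 by limma).

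Other genes with large rises had varied roles. COXFA4L3, related to a subunit of cytochrome c oxidase, rose from 4.20, 4.13 and 3.81, a dim level, to 7.70, 7.19 and 7.53, by 3.43 (SE 0.18, 10.8-fold, adjusted p = 3.28e-10 by limma). TCIM, a regulator of Wnt signalling, rose by 2.98 (SE 0.25, adjusted p = 1.02e-07 by limma), and AADACP1, an arylacetamide deacetylase pseudogene, by 2.75 (SE 0.18, adjusted p = 3.47e-09 by limma), both from a dim level. TCEA2, a transcription elongation factor, stood at 6.58, 6.66 and 6.54 with nefazodone and at 8.86, 8.61 and 9.22 with the mix, a change of 2.30 (SE 0.14, adjusted p = 1.85e-09 by limma). Other probe sets of TCEA2 gave -0.06, at a dim level, and 0.37. GPRC5B, an orphan receptor, rose by 2.18, and its probe sets at dim levels gave 0.71, 0.08 and -0.02. CARD16, an inhibitor of caspase 1, rose by 2.14 (SE 0.15, adjusted p = 4.42e-09 by limma). Of 21 cell death regulators 2 rose, near the 7.55% higher among all genes, and 1 rose without nefazodone array 3. CASP4, an inflammatory caspase, was among the 2, with a rise of 0.75 (SE 0.10, adjusted p = 1.47e-05 by limma). No groups overlapped in the genes of this paragraph, which, CASP4 apart, were picked for that.

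Among the other falls, GPNMB, a lysosomal glycoprotein, went from 7.11, 7.49 and 8.22 to 4.62, 4.58 and 5.28 and fell by 2.78 (SE 0.23, adjusted p = 8.53e-08 by limma). The long noncoding RNA GAS6-AS1 fell by 2.95 (SE 0.25, adjusted p = 1.24e-07 by limma) to a dim level, and its second probe set gave -0.59. ECM1, an extracellular matrix protein, fell from 8.49, 8.67 and 9.18 to 6.82, 6.96 and 6.80, a change of -1.92 (SE 0.13, adjusted p = 3.47e-09 by limma). LGALS4, a galectin, fell by 1.94, and CAPS2, a calcyphosine, by 1.90 to a dim level. MAOB, monoamine oxidase B, fell by 1.88 and PLCL1, a phospholipase C-like protein, by 1.88. No groups overlapped in these genes, which were picked for that.

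Matrix genes were mixed, with 8 of 27 lower and 3 higher. DCN, the proteoglycan decorin, fell by 1.203 (SE 0.29, adjusted p = 0.00581 by limma), and other probe sets of it at higher levels gave -1.25, -1.08 and -1.201, while those dim in both groups gave -0.01, -0.08 and -0.07. MMP7, matrilysin, fell by 1.06 (SE 0.21, adjusted p = 0.00121 by limma), and MMP10, stromelysin 2, rose from 5.86, 5.50 and 4.48 to 7.26, 6.90 and 6.76, by 1.70 (SE 0.29, adjusted p = 0.00028 by limma). Of 14 genes of the TGF-β pathway 5 rose and 1 fell. CCN2, connective tissue growth factor, rose by 1.00 (SE 0.17, adjusted p = 0.000331 by limma) and CCN1, its relative, by 0.99 (SE 0.18, adjusted p = 0.000584 by limma). Of 30 cell cycle genes 10 fell and 2 rose, and without nefazodone array 3, 7 fell and 0 rose, and 1 rose with the replicate block. In a fit of the 6 arrays alone 4 fell, and without array 2 of nefazodone with mix 5. KIF20A, a mitotic kinesin, fell from 4.69, 4.23 and 4.37 to 3.71, 3.14 and 3.72, a dim level. The change was -0.91 (SE 0.14, adjusted p = 0.000126 by limma). Nefazodone alone had already brought KIF20A below the 8.69 of the control.

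Markers of other cell types were read beside these changes. Of 13 biliary markers 1 rose and 2 fell, 1 without nefazodone array 3, and the log2 of their summed level was 12.18 to 12.47 with nefazodone and 11.57 to 11.77 with the mix. Their median change was -0.006, and 6 of them were dim in both groups. The sum is of unlogged levels, in which SPP1 weighs heavily. SPP1, osteopontin, fell from 11.28, 11.28 and 11.86 to 9.56, 9.64 and 10.04, a change of -1.73 (SE 0.18, adjusted p = 9.75e-07 by limma). KRT7, a keratin of bile ducts, rose from 6.00, 5.77 and 5.47 to 7.08, 6.91 and 6.81, by 1.18 (SE 0.15, adjusted p = 8.02e-06 by limma), while other probe sets of KRT7 gave -0.10, -0.15 and -0.07. KRT19, another such keratin, was at 10.21 ± 0.18 and 10.35 ± 0.02 (adjusted p = 0.543 by limma). Of 11 macrophage and leukocyte markers 8 were dim in both groups, among them CD163, CSF1R, LYZ and PTPRC. Their summed level was 7.31 to 7.48 with nefazodone and 7.34 to 7.62 with the mix, and 1 rose: MARCO, a scavenger receptor, by 0.73 (SE 0.18, adjusted p = 0.00648 by limma). The summed level of 10 endothelial markers was 7.22 to 7.41 and 7.19 to 7.25, with no call, and that of 12 stellate markers 10.12 to 10.36 and 9.90 to 10.08. The part of these markers in the changes above was not tested.

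The mix had a different effect with nefazodone than without it. Against vehicle, the mix alone changed 2006 genes (10.1%), 1340 higher (6.78%) and 666 lower (3.37%). After each array was centred on its median these were 925 and 1017. The interaction, the effect of the mix with nefazodone minus its effect without, was called in 2349 genes (11.9%), 903 above 0 (4.57%) and 1446 below 0 (7.31%). With centred arrays it was 1383 above and 944 below. The effects of the mix with and without nefazodone rest on separate arrays. Both called 573 genes, 18.7% of those called with nefazodone and 28.6% of those called without. Of these, 394 had the same direction and 179 the opposite. Across all genes the effects correlated at 0.163, a description over genes, which are not independent.

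**Figure D4:**
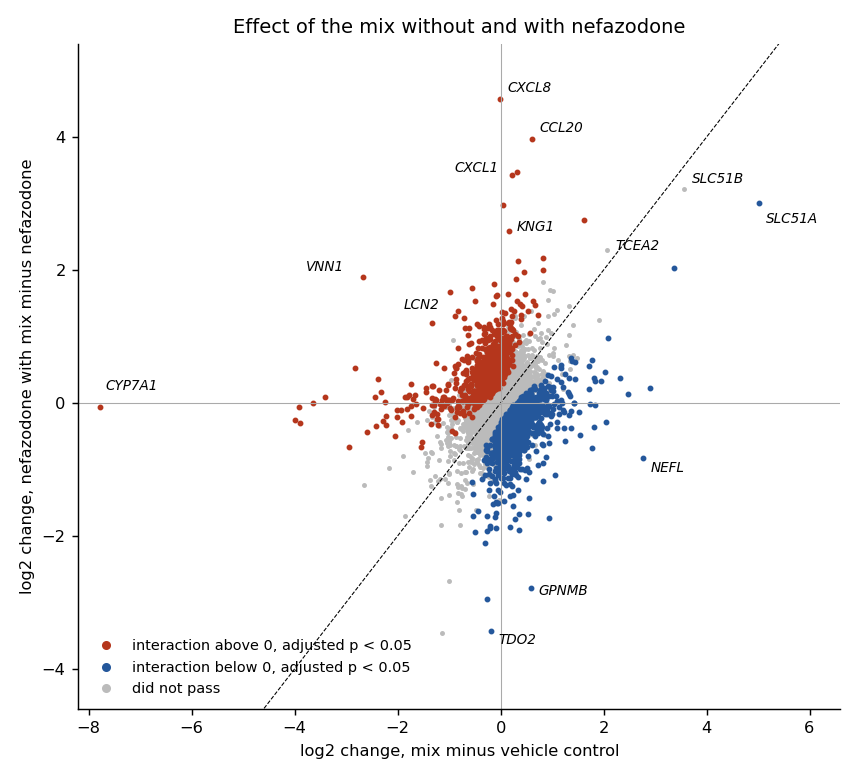
Each point is 1 of 19775 genes, placed by its log2 change with the mix alone against vehicle (horizontal axis) and with the mix added to nefazodone (vertical axis); red and blue points have a called interaction above or below 0, and the dashed line marks equal effects. CXCL8 lies at the top near 0 on the horizontal axis, SLC51B near the dashed line, and CYP7A1 at the far left.

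The chemokine rises were called as interactions. CXCL8 stood at 8.16 ± 0.20 in vehicle and 8.15 ± 0.32 with the mix alone, and its interaction was 4.59 (SE 0.39, adjusted p = 3.6e-07 by limma). The interactions of CCL20, CXCL1 and CXCL2 were 3.37, 3.16 and 2.54. That of CXCL2 exceeded its rise of 1.21 with nefazodone, because its mean was lower with the mix alone than in vehicle. Of the cytokine genes 7 had an interaction above 0 and 1 below, and of the NF-kB targets 6 above and none below, TNFAIP3 among them at 1.22.

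The exporter genes rose with the mix alone too. SLC51B rose by 3.57 with the mix alone, and its interaction of -0.36 did not pass (adjusted p = 0.692 by limma). SLC51A rose from 3.60 ± 0.42 to 8.61 ± 0.23, by 5.01, with the mix alone, and its interaction was -2.00 (SE 0.37, adjusted p = 0.000967 by limma), so its rise was smaller with nefazodone. ITIH3 rose by 3.36 with the mix alone and had an interaction of -1.33. TCEA2 rose by 2.07, with an interaction of 0.23 (adjusted p = 0.562 by limma). ABCB11 rose by 1.02 with the mix alone, and its interaction was -1.11 (SE 0.20, adjusted p = 0.000874 by limma). It was dim with nefazodone, with and without the mix, and changed there by -0.09.

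The ER genes moved in opposite directions. With the mix alone 11 of 24 fell and none rose (median -0.26), and 20 had an interaction above 0 and none below. With centred arrays 17 fell with the mix alone, and 21 had an interaction above 0. The interactions of PDIA4, SDF2L1 and CRELD2 were 1.504, 1.47 and 1.26, and that of HSPA5 was 0.48. For oxidative phosphorylation the mix alone gave no call among 31 (median 0.01; -0.05 and 2 lower with centred arrays), and 22 members had an interaction below 0, ATP5F1B at -0.92 and NDUFB10 at -0.82. For cholesterol synthesis 11 of 18 fell with the mix alone, and 3 had an interaction below 0, LSS at -0.94. For fatty acid synthesis 10 of 21 had an interaction below 0, LPIN1 at -1.196, and 1 above. Metallothioneins had 6 of 9 interactions above 0, MT1E at 1.02.

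Several large interactions were of genes that nefazodone alone had already brought to a low level. CYP7A1 fell by 7.77 with the mix alone and was dim with nefazodone, and its interaction was 7.72 (SE 0.76, adjusted p = 1.4e-06 by limma). CRP, C-reactive protein, CFHR4, a factor H-related protein, and CYP2E1, the ethanol-inducible P450, fell by 3.91, 3.998 and 3.65 with the mix alone. Their nefazodone levels were 3.64, 3.34 and 4.51, and their interactions were 3.84, 3.74 and 3.65. VNN1 was not dim in any of these groups. It fell from 10.93 to 8.25 with the mix alone and rose from 8.57 to 10.46 when the mix was added to nefazodone (interaction 4.57, SE 0.36, adjusted p = 2.59e-07 by limma). LCN2 had an interaction of 2.19, above its rise of 1.31 with nefazodone, because its mean too was lower with the mix alone than in vehicle.

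In the other direction, NEFL, a neurofilament protein, rose by 2.76 with the mix alone and fell by 0.84 with nefazodone, where it was dim (interaction -3.60, SE 0.30, adjusted p = 3.14e-07 by limma). Its fall with nefazodone had an adjusted p of 0.0897 without nefazodone array 3. FETUB, a plasma protease inhibitor, rose by 2.90 with the mix alone and was dim with nefazodone (interaction -2.68). SPP1 rose by 0.95 with the mix alone and fell with nefazodone (interaction -2.67). GPNMB, TDO2 and GAS6-AS1 had interactions of -3.37, -3.24 and -2.68. Those of CYP3A4, FGFR4, KNG1 and KRT7 were -2.04, -1.04, 2.43 and 1.15. Without nefazodone array 3 the interactions of TDO2 and CYP3A4 were -2.47 and -1.36, both still called. The KNG1 interaction had an adjusted p of 0.0522 by limma without array 3 of nefazodone with mix.

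The effect of the mix was also set against its effect with the other drugs, which were given at other doses. The mix changed 3797 genes (19.2%) with atazanavir, 8.95% higher and 10.3% lower. With cyclosporin A it changed 7278 (36.8%), 18.4% in each direction. The difference of effects, nefazodone minus atazanavir, was called in 2209 genes (11.2%), 1077 above 0 (5.45%) and 1132 below (5.72%), and with centred arrays 1768 above and 905 below. Nefazodone minus cyclosporin A was called in 4438 (22.4%), 2356 above 0 (11.9%) and 2082 below (10.5%). With centred arrays these were 1765 and 3482, and the median of all genes moved to -0.12. Of the genes called with nefazodone 41.1% were also called with atazanavir, 33.1% of that list, and 62.0% with cyclosporin A, 26.1% of that list. The direction was the same in 1061 of 1258 and in 1507 of 1897 of these.

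**Figure D5:**
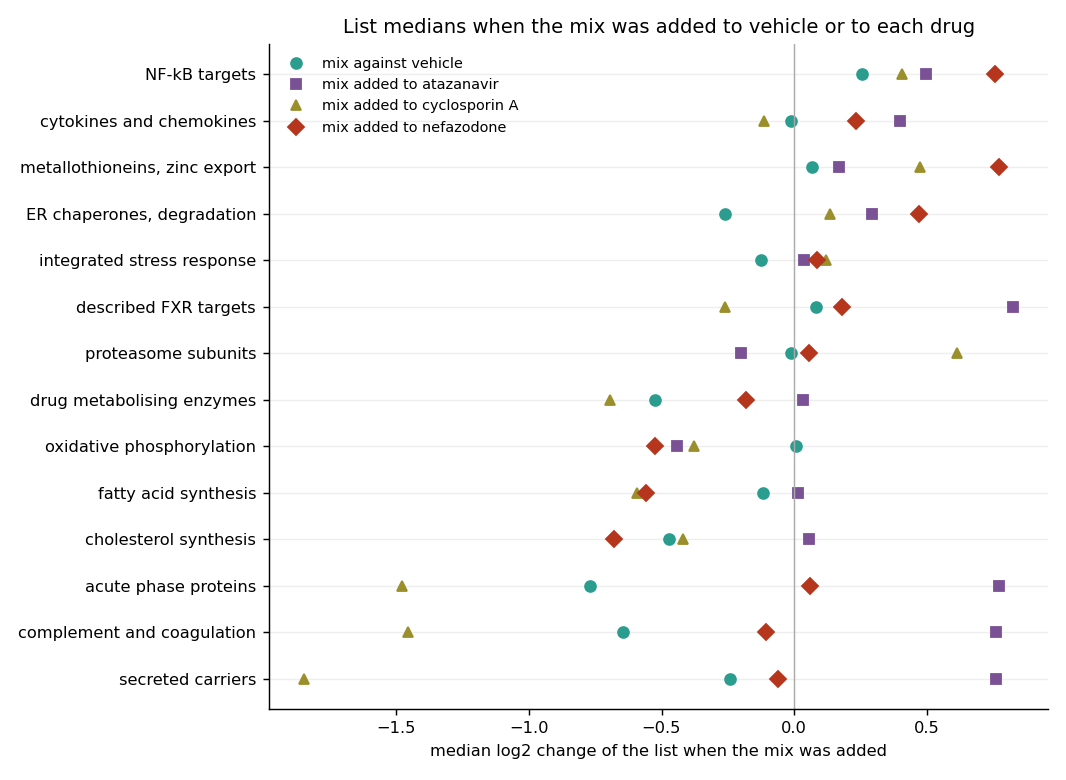
Median log2 change of 14 gene lists (horizontal axis) when the mix was added to vehicle, atazanavir, cyclosporin A or nefazodone, with 3 arrays against 3 in each. Oxidative phosphorylation lies below 0 with each drug and at 0.01 with vehicle (-0.05 with centred arrays), and cholesterol synthesis lies at 0.06 with atazanavir and below 0 in the others.

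Oxidative phosphorylation genes fell in 24 of 31 with atazanavir and in 22 with cyclosporin A. The difference between nefazodone and atazanavir was above 0 in 1 and below in none, and that from cyclosporin A above in 3 and below in 6. With centred arrays the differences from cyclosporin A were above 0 in 0 and below in 11, and after quantile normalization 4 differences from atazanavir were below 0 and 0 above. ER genes rose in 16 of 24 with atazanavir and in 9 with cyclosporin A, where 3 fell. With centred arrays they rose in 12 with atazanavir and in 18 with cyclosporin A, where 2 fell, so the order of these drugs depends on the scaling. Of cholesterol synthesis genes none was called with atazanavir (1 fell with centred arrays), 11 of 18 fell with cyclosporin A, and 13 had a difference from atazanavir below 0. Fatty acid synthesis had 11 such differences of 21, with 1 above 0, and metallothioneins had 7 of 9 above 0. Secreted carriers had 10 of 23 differences below 0 from atazanavir and 16 above 0 from cyclosporin A, and complement genes 12 and 20 of 30. Of proteasome genes 24 of 25 had a difference from cyclosporin A below 0. Of 21 cytokine genes 8 rose with atazanavir (median 0.40, none lower) and 5 with cyclosporin A, where 4 fell. Their differences were above 0 in 4 and below in 2 from atazanavir, and 7 and 1 from cyclosporin A. NF-kB targets rose in 7 of 12 with each of these drugs and fell in none. Their differences were above 0 in 3 and below in 1 from atazanavir, and 4 and 0 from cyclosporin A (2 and 0 with centred arrays).

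Among single genes, the largest differences from atazanavir above 0 were of CYP1A1 (4.13), CXCL8 (3.17) and APOBEC3B, a cytidine deaminase (1.87). CYP1A1 fell with atazanavir from 7.11 ± 0.36 to 4.10 ± 0.16, whereas it rose with nefazodone. Below 0 they were of APOA2 (-3.96), an apolipoprotein of HDL, TDO2 (-3.90) and FABP1 (-3.73), the liver fatty acid-binding protein. Without nefazodone array 3 those of TDO2 and FABP1 were -3.13 and -2.82, both still called. FABP1 stood at 4.05, 3.75 and 6.63 with nefazodone and at 3.15, 3.49 and 4.50 with the mix (adjusted p = 0.303 by limma), a change of -1.09, and of -0.18 without nefazodone array 3. Its groups overlapped. APOA2 rose by 3.24 with atazanavir and was at 9.38 ± 0.14 with nefazodone and 8.66 ± 0.53 with the mix (adjusted p = 0.264 by limma; 0.0399 with the replicate block). From cyclosporin A the largest differences above 0 were of KNG1 (6.14), ADH1B (5.47), an alcohol dehydrogenase, and UGT2B15 (5.25), a glucuronosyltransferase. These fell by 3.55, 5.30 and 4.71 when the mix was added to cyclosporin A. Below 0 they were of GPNMB (-3.31), PNLIPRP3 (-2.91), a lipase-related protein, and CAPS2 (-2.80). PNLIPRP3 and CAPS2 were dim with nefazodone and mix.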

How the data were processed

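HepaRG cultures were measured on a human 3′ expression array. The deposited values are log2 levels per probe set, normalized by the authors with RMA per the submitters' processing notes, whose version and settings are not given in the sources used here. RMA makes arrays alike in distribution, so a shift common to most genes would be removed. The array gives no counts, and the number of arrays limits the precision. Of 54675 probe sets, 41091 had 1 gene symbol, 1801 several and 11721 none, and 62 were controls; only those with 1 symbol were named. A gene was represented by the probe set with the highest mean over the 24 HepaRG arrays, which gave 19775 genes, 10523 of them with several probe sets. No filter on dim genes was applied.

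Groups came from the sample titles. limma 3.58.1 (R 4.3.3) fitted 8 group means to 24 arrays with 16 residual degrees of freedom, so the groups share one estimate of the spread, and p-values were adjusted by Benjamini-Hochberg over all genes. The fit was tested on simulated data. The series' text gives 3 batches of HepaRG cells, while the labels do not say that a replicate number marks a batch. Same-numbered arrays of nefazodone and of nefazodone with mix deviated together from their group means, with correlations of 0.130, 0.205 and 0.288, and were taken as pairs in an alternative with the replicate number as a block. These correlations were 0.190 to 0.257 for vehicle and mix, -0.005 to 0.176 for atazanavir and -0.140 to 0.114 for cyclosporin A, so the pairing was not borne out in the groups of those drugs, which the blocked fit of 24 arrays also holds. Alternatives were centring each array on its median, quantile normalization again, the mean of all probe sets of a gene, leaving out the dimmest 1 in 3 genes, trend and robust variance moderation, the 6 arrays alone, and leaving out each array.

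Genes named were the 12 largest rises and 12 largest falls past the threshold without overlap of groups, up to 3 called members of each of 42 gene lists, 30 key genes where measured, the 6 largest interactions and the 3 largest differences between drugs in each direction. Interactions of other named genes are given too. CCL2, CXCL2, CXCL3, IL18, IL6, CSF1, NFKBIA, INSIG1, INSIG2, FASN, SREBF1 and CALR were added after their values were seen, as were list members that did not pass. The members and lists were chosen with earlier results of these data known. Promoter windows came from RefSeq (GRCh38.p14) and were matched by gene identifier. Of the motifs not shown, that of FXR was in 0 of 15382 windows. That of ATF4 was in 2.31% of all windows, 1.94% of genes that rose and 1.71% of genes that fell. These shares were 12%, 14.5% and 11.3% for the antioxidant motif and 0.832%, 1.05% and 1.16% for the sterol motif. In their own lists these 3 were in 4 of 23 stress response, 4 of 15 NRF2 and 1 of 17 cholesterol synthesis windows.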

Additional observations from a re-analysis of the deposited data

Results flagged for a closer look

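Each result here is a difference between effects of the mix that passed its own limma test at an adjusted p under 0.05. The effect of the mix differed with and without nefazodone in 2349 genes, between nefazodone and atazanavir in 2209, and between nefazodone and cyclosporin A in 4438.

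Inflammatory genes had interactions above 0: CXCL8 at 4.59, CCL20 at 3.37, CXCL1 at 3.16, CXCL2 at 2.54, LCN2 at 2.19 and TNFAIP3 at 1.22. For CXCL2 and LCN2 a lower mean with the mix alone than in vehicle made up part of this. VNN1 stood at 4.57. The bile acid gene CYP7A1 at 7.71, the plasma protein genes CRP at 3.84, CFHR4 at 3.74 and KNG1 at 2.43, and the P450 gene CYP2E1 at 3.65 were above 0, as were the ER genes PDIA4 at 1.5, SDF2L1 at 1.47, CRELD2 at 1.26 and HSPA5 at 0.48, the metallothionein MT1E at 1.02 and the keratin KRT7 at 1.15. CYP7A1, CRP and CFHR4 were dim with nefazodone and changed there by -0.06, -0.06 and -0.25. Their interactions mostly restate their falls with the mix alone, as does that of CYP2E1, which changed by 0.006.

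Interactions below 0 were -3.60 for NEFL, -3.37 for GPNMB, -3.23 for TDO2, -2.68 for GAS6-AS1, -2.68 for FETUB and -2.67 for SPP1. NEFL and FETUB were dim with nefazodone. Transport and receptor genes were at -2.00 for SLC51A, -1.11 for ABCB11 and -1.04 for FGFR4. SLC51A and ABCB11 were dim with nefazodone too, and ABCB11 changed there by -0.09. Metabolic genes were at -2.04 for CYP3A4, -1.2 for LPIN1, -0.94 for LSS, -0.92 for ATP5F1B and -0.83 for NDUFB10. The plasma protein gene ITIH3, dim with nefazodone, was at -1.33.

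The effect with nefazodone minus that with atazanavir was 4.13 for CYP1A1, 3.17 for CXCL8 and 1.87 for APOBEC3B, and -3.96 for APOA2, -3.90 for TDO2 and -3.73 for FABP1. The effect with nefazodone minus that with cyclosporin A was 6.14 for KNG1, 5.47 for ADH1B and 5.25 for UGT2B15, and -3.31 for GPNMB, -2.91 for PNLIPRP3 and -2.80 for CAPS2.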

How the results depend on the processing

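With 1 array left out at a time, the mix added to nefazodone gave 1844 to 2891 calls, 899 to 1453 higher and 945 to 1456 lower. The mix alone gave 1259 to 1674 calls, 835 to 1055 higher and 395 to 619 lower. The interaction gave 1810 to 2187 calls, 650 to 891 higher and 1139 to 1355 lower. The difference from atazanavir gave 1534 to 2136 calls, 691 to 1069 higher and 786 to 1067 lower. The difference from cyclosporin A gave 3729 to 4876 calls, 1973 to 2583 higher and 1708 to 2416 lower. Counts moved by over 1.5 times without nefazodone array 3 for the mix added to nefazodone (the low ends), without control array 3 (1321 calls, 395 lower), mix array 2 (1259, 835 higher, 424 lower) or mix array 1 (406 lower) for the mix alone, and without atazanavir array 2 (696), nefazodone array 3 (691) or array 1 of nefazodone with mix (702) for differences from atazanavir above 0. With centred arrays, 1017 genes were lower with the mix alone, 1383 interactions were above 0 and 944 below, 1768 differences from atazanavir were above 0 and 3482 differences from cyclosporin A were below 0; the other counts over all genes stayed within 1.5 times under centring, as did all of them under quantile normalization, probe set means, the block, the moderation and the filter on dim genes. Genes near 0 that were not called changed sign: ASNS was at -0.009 after quantile normalization and ALB at 0.013 after centring, and with 1 array left out CYP7A1 ranged over -0.121 to 0.023, CYP8B1 over -0.141 to 0.082, ABCC3 over -0.009 to 0.055, ASNS over -0.048 to 0.028, CHAC1 over -0.053 to 0.101 and ALB over -0.063 to 0.029. The cause of these shifts was not tested. In a fit of the 6 arrays alone the mix added to nefazodone gave 2270 calls, 1124 higher and 1146 lower. Of the counts and gene calls compared with the main fit, 33 were weaker there and 165 the same. With the mean of all probe sets of a gene 16 were weaker, 3 stronger and 239 the same. Not all of these are named in the text. Beside the counts given for nefazodone array 3, small list counts for the mix added to nefazodone moved by over 1.5 times as follows. Without nefazodone array 1 these were 0 higher for heat shock, 0 higher for cell cycle, 1 higher for cell death and 0 lower for TGF-β. Without nefazodone array 2 these were 1 lower for bile acid synthesis and 0 lower for TGF-β. Without array 1 of nefazodone with mix these were 1 lower for bile acid synthesis, 1 lower for receptors, 2 lower for fatty acid oxidation, 3 higher for stress response, 0 higher for NRF2 targets, 0 higher for heat shock, 1 lower for complement, 1 lower for carriers, 2 lower for amino acid breakdown, 0 higher for cell cycle, 1 higher for cell death and 0 lower for TGF-β. Without its array 2 these were 1 lower for bile acid synthesis, 1 lower for receptors, 3 higher and 1 lower for stress response, 2 lower for tRNA synthetases, 0 higher for heat shock, 1 lower for carriers, 3 lower for amino acid breakdown, 0 higher and 5 lower for cell cycle, 1 higher for cell death and 1 lower for biliary markers. Without its array 3 these were 2 lower for fatty acid oxidation, 2 higher for heat shock, 2 lower for urea cycle, 1 higher for cell cycle and 2 higher for S100. With centred arrays these were 1 lower for bile acid synthesis, 1 lower for stress response, 0 lower for TGF-β and 2 higher for S100. After quantile normalization these were 2 lower for urea cycle, 1 higher for cell cycle and 1 higher for cell death. Among the genes named, the replicate block changed the call of APOA2 and no other. Dim levels limit the folds of genes such as SLC51A, CXCL1 and CYP2C8.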
